A study of Mus musculus with 11 samples.

Results

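Splenic macrophages (SMs) of WT mice were set against the macrophages (macs) of 4 other tissues, to describe which genes set the spleen apart and how far it resembles the liver. SMs were the cell barcodes of the WT spleen library with at least 3 unique molecular identifiers (UMIs) over C1qa, C1qb and C1qc, the chains of complement C1q, and 3642 of its 4474 barcodes (81.4%) met this rule, out of 51712 barcodes in the whole series. After a cell filter, 3441 SMs with 9044189 UMIs were kept.

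The data are droplet single-cell RNA sequencing (10x Genomics, counting the 3′ ends of transcripts) of macs sorted by flow cytometry, made to study deletion of the transcription factor ZEB2. All libraries used here are WT controls without CRE recombinase: Zeb2fl/fl mice, whose Zeb2 gene is flanked by loxP sites but intact, gave 1 library each of SMs, Kupffer cells (KCs) of the liver, colonic macs (CMs), alveolar macs (AMs) of the lung and microglia of the brain, and Nr1h3fl/fl mice, likewise floxed but intact at Nr1h3, gave an additional liver library. The mice were C57Bl/6, 6 to 8 weeks old unless stated otherwise, of mixed sexes, and the number of animals behind a library is not given in the sources used here. SMs and CMs were sorted as CD45+ CD64+ F4/80+ cells without Ly6C, Ly6G and SiglecF, KCs as Clec4F+ CD64+ F4/80+ cells, AMs as CD11c+ SiglecF+ F4/80+ CD64+ cells and microglia as CD45int F4/80+ CD64+ cells, and KCs and AMs were sequenced on another instrument than the rest. Spleen, lung and brain were digested with the same enzymes, brain cells then passing a density gradient. The liver was digested with another enzyme and the colon by a protocol described earlier. Tissue therefore cannot be told apart from gate for KCs, AMs and microglia, or from digestion for KCs and CMs. For KCs and AMs it also cannot be told apart from instrument.

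Red pulp macs, the main macs of the spleen, take up aged red blood cells, break down their haem and return the iron to the blood. Their development depends on the transcription factor SPI-C, which haem induces, and they carry the adhesion molecule VCAM1. KCs, which line the liver sinusoids, also face the blood and share part of this iron recycling. The spleen also holds marginal zone and metallophilic macs around the white pulp, known for Marco, Cd209b and Siglec1.

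With 1 library per tissue there is no replicate check and no test. UMIs of a gene were summed over the cells of a library and divided by the library's total, as counts per 1000000 UMIs (CPM), with exact Poisson 95% intervals that cover counting error only, and a log2 ratio compares 2 libraries after 1 CPM was added to both. Each UMI stands for a transcript end, so CPM needs no correction for length. SMs were the shallowest cells, with a median of 2302 UMIs against 3586 to 9196 in the 5 other libraries, and had the highest median share of mitochondrial UMIs, 8.14% against 1.01% to 4.98%. The C1q rule was met by 99.1% of KC, 99.98% of CM and 99.7% of microglia barcodes and by 0 of 7703 AM barcodes, so these libraries entered whole. The spleen library shared 19 to 47 barcodes with each of the other libraries.

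All 4 markers of SMs were highest in the spleen. Vcam1 (chromosome 3, 116109949 to 116129688, minus strand, GRCm38/mm10) was at 6389 CPM (6337 to 6441) in SMs, 187 in KCs, 172 in CMs, 8.67 in microglia and 0.25 in AMs. Spic (chromosome 10, 88674772 to 88685015, minus strand) was at 1527 CPM (1502 to 1553) in SMs, 91.0 in KCs, 28.6 in CMs, and rested on 1 UMI each in AMs and microglia. Hmox1 (chromosome 8, 75093621 to 75100589, plus strand), which encodes the haem-cleaving enzyme haem oxygenase 1, was at 10801 CPM (10733 to 10869) in SMs, 1048 in KCs, 765 in microglia, 464 in CMs and 114 in AMs. On the log2 scale these 3 genes stood 5.09, 4.05 and 3.36 above the next tissue of Zeb2fl/fl mice, which was KCs in each case. The Nr1h3fl/fl KCs were higher than these, at 309 CPM for Vcam1, 109.8 for Spic and 1079 for Hmox1, which leaves 4.36, 3.79 and 3.32.

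Slc40a1 (chromosome 1, 45908068 to 45926523, minus strand), which encodes the iron exporter ferroportin, was shared with the liver. Its level was 4593 CPM (4549 to 4637) in SMs, 2104 in KCs, 129 in microglia, 86.0 in CMs and 1.89 in AMs. The log2 ratio of SMs to KCs was 1.13, but 0.72 to the Nr1h3fl/fl KCs, in which Slc40a1 stood at 2784 CPM, a difference of 0.40 between the liver libraries.

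**Figure D1:**
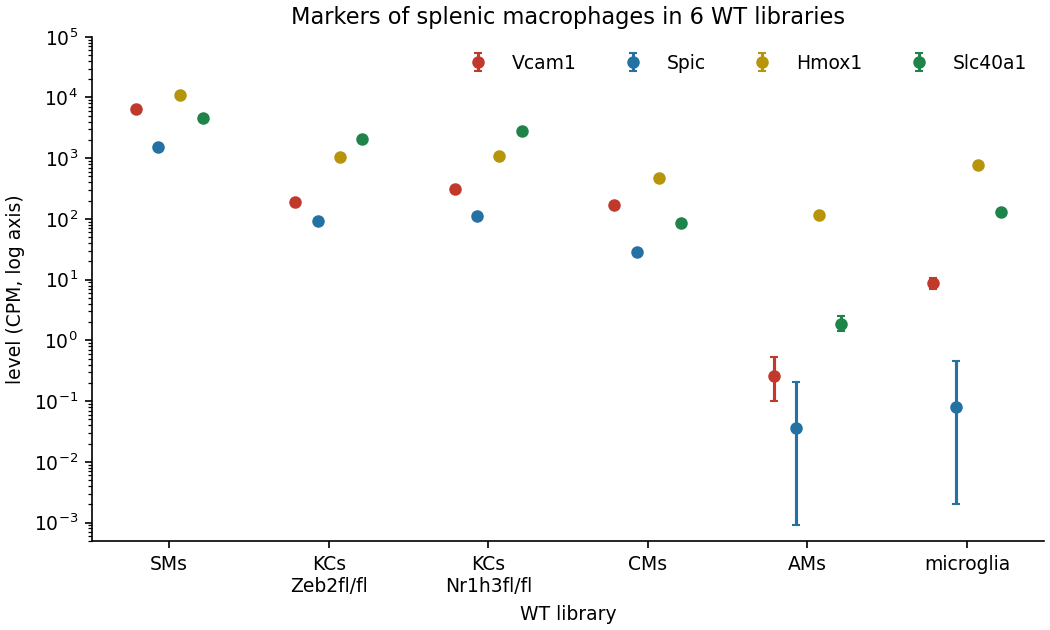
Levels of Vcam1, Spic, Hmox1 and Slc40a1 in the 6 WT libraries, in CPM on a log axis. Points are the UMIs of a gene summed over a library and bars are exact Poisson 95% intervals (counting error only); the 4 markers are highest in SMs, and Slc40a1 is next highest in both KC libraries.

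Nearly every SM carried the markers. A Vcam1 UMI was seen in 99.1% of SMs (exact binomial 95% interval 98.8% to 99.4%), Hmox1 in 99.7%, Slc40a1 in 98.1% and Spic in 90.6%, and all 4 were seen in 3068 cells (89.2%). In 198 barcodes of the same library with B cell markers and no C1q UMI, the shares were 68.2%, 80.8%, 49.5% and 25.8%, at a median of 1889 UMIs per cell. Levels there were lower than in SMs, for Vcam1 551 CPM, and whether these UMIs came from free RNA or from doublets was not tested. With every cell thinned to 1000 UMIs, which left out 241 SMs, the 4 shares in SMs were 97.3%, 97.7%, 94.6% and 74.5%, and in the B cells 44.0%, 60.9%, 28.8% and 14.7%.

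The markers, which the C1q rule did not use, were higher at higher C1q sums up to 9. As a ratio, the largest step between neighbouring single sums lay at the threshold. Vcam1 was at 724 CPM in the 275 barcodes without a C1q UMI, 1181 CPM at a sum of 1, 1621 CPM at 2, just outside the rule, 3134 CPM at 3, just inside it, 4625 CPM at 4, and 6574 CPM at 10 or more. From a sum of 2 to 3, Spic went from 450 to 875 CPM, Hmox1 from 3012 to 6474 and Slc40a1 from 971 to 1928, while the share of barcodes with a Vcam1 UMI was 86.8% and 89.7%. In CPM, the next step, to a sum of 4, was larger for Hmox1, which reached 10337, and for Slc40a1, which reached 3066. Hmox1 was at 13508 CPM at 5 to 9 and lower, at 10331 CPM, at 10 or more. Conversely, Cd79a, a part of the B cell receptor, was seen in 64.7% of barcodes without C1q and 55.0% at a sum of 2. Inside the rule it was still seen in 35.1% at 3 and 31.2% at 4, and in 12.9% at 10 or more. Median UMIs per barcode were 1762.5 at a sum of 2 and 1299 at 3. The marker step at the threshold thus came with less Cd79a and lower depth, and their part in it was not tested. B cell markers summed to 4700 CPM in the spleen barcodes outside the rule and 523 CPM in SMs. In SMs, 15.3% of cells still held at least 2 B cell marker UMIs.

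To define which genes set SMs apart, a gene was called SM-high at 50 CPM or more, a UMI in at least 20% of SMs and a log2 ratio of at least 2 (4-fold) over the highest of the 4 other tissues. This rule called 49 of 1557 genes (3.15%). The next-highest library was KCs for 29 of the 49, AMs and CMs for 7 each, and microglia for 6. Below, values given as elsewhere are those of these 4 tissues of Zeb2fl/fl mice, without the additional liver library. With that library in place of the Zeb2fl/fl KCs, 36 genes were SM-high and the lowest ratio among the 18 named was 2.11.

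Itgad, which encodes the αD chain of a β2 integrin (chromosome 7, 128154376 to 128223816, plus strand), stood furthest apart. Its level was 448 CPM (434 to 462) in SMs and at most 2.87 CPM elsewhere, with 0 UMIs in both liver libraries, so SMs were at least 3871-fold above KCs, taking 3 UMIs as the floor of the KC library. It was seen in 62.9% of SMs and in 13.6% of the B cells of the same library. Ccr3, the eotaxin receptor (chromosome 9, 124021972 to 124031689, plus strand), was at 762 CPM in SMs, 23.6 in KCs and at most 2.68 in the other 3 libraries. Both are cell surface genes seen in most SMs.

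Further SM-high genes encode channels, transporters and receptors. The sodium, potassium and chloride cotransporter Slc12a2 was at 517 CPM in SMs, at most 41.8 elsewhere and 44.2 in the Nr1h3fl/fl KCs. The potassium channel Kcnj10 was at 416 CPM in SMs, at most 43.6 elsewhere and 55.3 in the Nr1h3fl/fl KCs. The neurturin receptor Gfra2 was at 420 CPM in SMs, 37.6 in KCs and at most 2.92 in the other 3. The surface glycoprotein Mpzl1 reached 255 CPM in SMs, 21.4 in KCs and at most 7.64 in the rest. The amino acid transporter Slc43a2 and the tetraspanin Tspan13 were abundant but less restricted, at 750 and 774 CPM in SMs against 173 and 168 CPM in the next library.

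The remaining named SM-high genes have roles inside the cell or in the matrix. The formin Fhod1, which builds actin filaments, was at 605 CPM in SMs and 30.9 in KCs, a log2 ratio of 4.25. Id2, which blocks basic helix-loop-helix factors, was at 1655 CPM in SMs and 117 to 348 elsewhere. Collagen XIV (Col14a1) was at 222 CPM in SMs, 21.0 in CMs and 1.31 in KCs. The ubiquitin ligase subunit Skp2, the reductase Cyb5r1, the ribosomal RNA processing factor Wdr75 and the sorting nexin Snx25 had log2 ratios of 3.35, 3.14, 3.06 and 2.98, each over KCs.

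**Figure D2:**
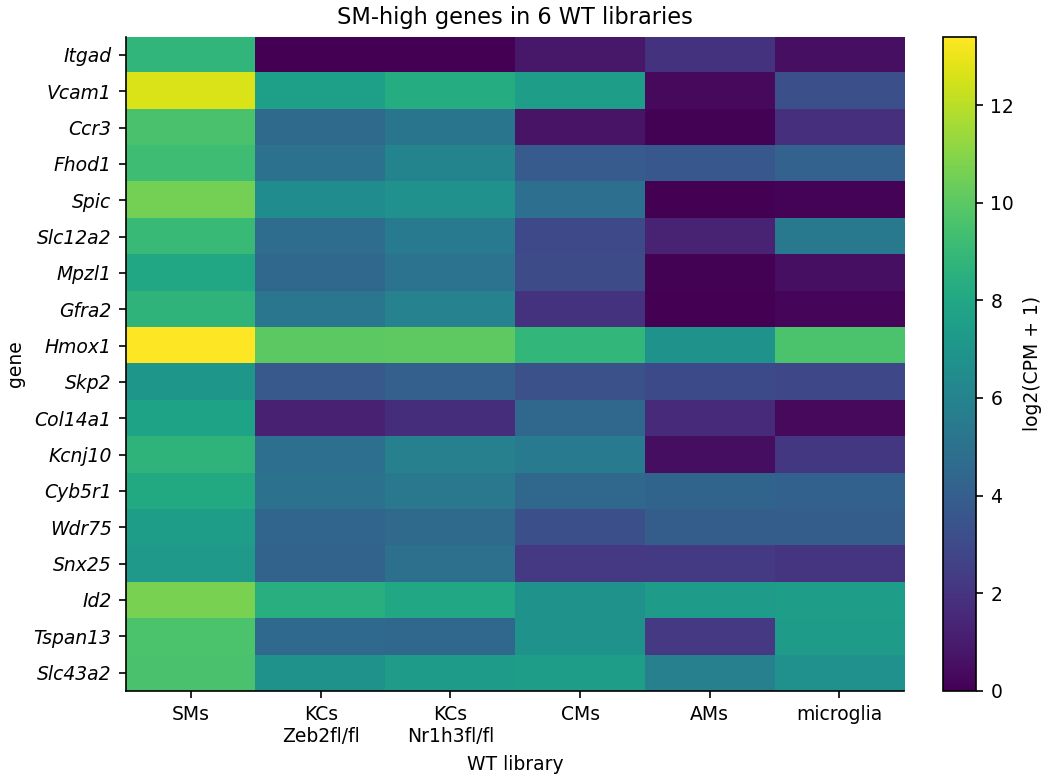
Levels of the 18 named SM-high genes (rows, ordered by the log2 ratio over the highest other tissue) in the 6 WT libraries (columns), as log2 of CPM plus 1. SMs are the brightest column in every row, and Itgad is at 0 in both KC libraries.

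Because 39 of the 49 SM-high genes matched a promoter in RefSeq (GRCm38.p6, 250 bases before to 50 after the start), these were searched on both strands for the core of the antioxidant response element, TGACNNNGC, through which NRF2 and BACH1 act on haem and redox genes. It was found at 10 of the 39 (25.6%), against 14.0% of all 27025 genes with a promoter, 19.4% of genes of at least 50 CPM in SMs, and 12 of 38 SM-low genes (31.6%, defined below). The purine-rich box GAGGAAGT, read by PU.1 and SPI-C, was found at 1 of the 39 (2.56%) against 3.69% of all. Neither share was above that of the SM-low genes. Vcam1, Hmox1 and Itgad were among the SM-high genes without a promoter entry and were not searched. The matches at the most abundant searched genes that hold one are shown with the match in capitals, as the letters of the gene's own strand.
Id2, chr12:25096051-25096077, minus strand: cctggtgccGCGCAGTCAgctcagccc
Ccr3, chr9:124021870-124021896, plus strand: aaaaaatgaGCAGTGTCAaatgggtga
These windows hold the reverse complement of the core, which begins at base 25 of the transcript at Id2 and 92 bases before the start at Ccr3.

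Conversely, 47 of 1421 genes (3.31%) were SM-low, at a log2 ratio of -1 or lower to the lowest of the 4 other tissues, all of which had at least 50 CPM. This count moved with scaling and with the choice of libraries, as given in the closing section. Ltc4s and C5ar1 had the lowest ratios. Ltc4s, leukotriene C4 synthase, was at 3.76 CPM in SMs and 108 to 793 CPM elsewhere, and Alox5ap, which feeds arachidonic acid to 5-lipoxygenase, was at 47.2 CPM and 247 to 694 CPM. C5ar1, the receptor of the complement fragment C5a, was at 4.53 CPM in SMs and 93.7 to 480 CPM elsewhere. Fcgr2b, the inhibitory Fc receptor, was at 10.2 CPM in SMs and 52.6 to 567 CPM elsewhere, but at 13.3 CPM in the Nr1h3fl/fl KCs, with which its log2 ratio was -0.36 and it was not SM-low.

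Further SM-low genes were the stress-induced Gadd45g, at 6.08 CPM in SMs and 109 to 167 elsewhere, Emp3, at 10.5 CPM and 65.5 to 502, and the actin-capping Capg, at 13.9 CPM and 58.9 to 388. The myeloid transcription factor Cebpa was at 21.1 CPM in SMs and 96.8 to 666 CPM elsewhere. Tax1bp3 and the ribonuclease inhibitor Rnh1 had log2 ratios of -2.29 and -1.99 to the lowest of the 4 tissues, and with the Nr1h3fl/fl KCs, in which they were at 38.8 and 71.2 CPM, of -1.83 and -1.32, Tax1bp3 then missing the floor of 50 CPM. Of the 12 listed pan-macrophage genes, 4 were highest in SMs among the 5 tissues. The share of all genes that were highest in SMs was not counted, so this is not read as a trait of the list. Against KCs, 2 of the 12 were higher and 5 lower, with 25.1% and 11.5% of all genes. The SM-low set, with 3.31% of all genes considered, included 2 of them. The lysozyme gene Lyz2 was at 109 CPM in SMs, 332 in microglia and 9237 to 19406 in KCs, AMs and CMs, and Spi1, which encodes PU.1, was at 184 CPM in SMs and 464 to 648 elsewhere.

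Among the 5 other libraries the Nr1h3fl/fl KCs were nearest to SMs by both measures used, and among the 4 tissues of Zeb2fl/fl mice the nearest differed between the measures. Across 7555 genes, Pearson's r of log2 CPM was 0.75 with KCs, 0.62 with CMs, 0.57 with AMs and 0.52 with microglia, and 0.80 with the Nr1h3fl/fl KCs, as a description across genes, which are not independent. The same measure was 0.97 between the 2 KC libraries. The median absolute log2 difference from SMs was smaller in AMs (0.63) than in KCs (0.72), CMs (0.83) and microglia (0.91), and was 0.54 in the Nr1h3fl/fl KCs. Between KCs and CMs r was 0.76 and the median absolute log2 difference 0.38. By both measures the Zeb2fl/fl KCs were thus nearer to CMs than to SMs.

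In all, 1566 of the 6243 genes (25.1%) that reached 20 CPM in SMs or KCs were higher in SMs than in KCs by a log2 ratio of at least 1, and 717 (11.5%) were lower. The same rule called 78 of 5409 genes (1.44%) between the 2 KC libraries. This excess of higher genes depended on scaling: the median log2 ratio of all genes was 0.35 with library totals and 0.01 with edgeR's TMM factors, with which 851 were higher and 1214 lower. Totals without mitochondrial, ribosomal, haemoglobin and immunoglobulin genes, chosen after seeing the data, moved it the other way. With these the median was 0.47, and 2055 were higher and 659 lower. Ratios near 0.35 are therefore not read as differences below. Against the Nr1h3fl/fl KCs, 943 of 6151 genes (15.3%) were higher and 555 (9.02%) lower. By the same rule 2018 genes (31.7%) were higher and 840 (13.2%) lower in SMs than in CMs, 1167 (18.1%) and 1061 (16.4%) than in AMs, and 1742 (25.7%) and 1438 (21.2%) than in microglia. With TMM factors these splits also turned for CMs, to 1086 higher and 1424 lower, and for AMs, to 914 and 1345.

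**Figure D3:**
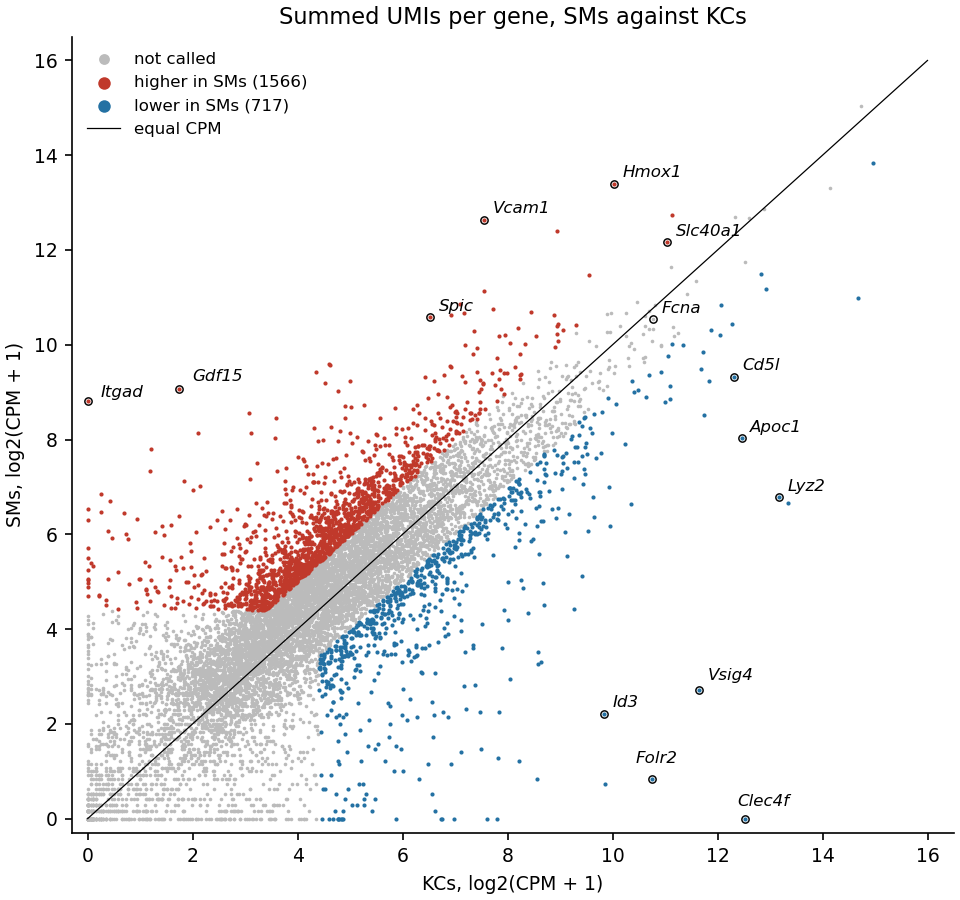
Level of each gene in KCs (x axis) and SMs (y axis), as log2 of CPM plus 1, with 1566 genes higher in SMs in red and 717 lower in blue; mitochondrial, ribosomal, immunoglobulin, haemoglobin, C1q and sex-linked genes are not drawn. Itgad and Gdf15 lie at the upper left and Clec4f, Folr2 and Vsig4 at the lower right.

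Of the genes furthest above KCs, several were present in other tissues. After Itgad came Gdf15, a stress-induced cytokine, at 533 CPM in SMs and 2.35 in KCs. Ddit4, an inhibitor of mTORC1, was the last of the 10 highest ratios, at 280 and 3.28 CPM. The long non-coding RNA 2900052N01Rik and the heparan sulfate sulfotransferase Hs3st2 were at 91.8 and 78.4 CPM in SMs and had 0 UMIs in KCs, at least 793-fold and 677-fold differences. Lag3 and the transporter Slco2b1 were at 103 and 87.1 CPM in SMs and under 1 CPM in KCs, but at 378 and 520 CPM in microglia. S100a8 and S100a9, which neutrophils carry in large amounts, were at 161 and 114 CPM in SMs but were seen in only 2.27% and 1.45% of cells.

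Furthest below KCs stood Clec4f, the lectin by which KCs were sorted, which had 0 UMIs in SMs and 5923 CPM in KCs, at least 17855-fold higher. The folate receptor Folr2 was at 0.77 CPM in SMs and 1726 in KCs, the lipid-binding Fabp7 at 0.66 and 920, and the complement receptor Vsig4 at 5.53 and 3206. Id3, an inhibitor of basic helix-loop-helix factors that marks KCs, was at 3.65 CPM in SMs and 914 in KCs, the opposite of Id2. Cd207, Saa3 and Cd209f had 0 UMIs in SMs against 221, 195 and 126 CPM in KCs, but Saa3 also had 0 UMIs in the Nr1h3fl/fl KCs. Cdh5 and Cxcl13 were at 0.77 and 1.33 CPM in SMs and 376 and 297 in KCs.

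Of 22 listed KC genes, 13 were lower in SMs and 2 higher, against 11.5% and 25.1% of all genes. Not all were absent from the spleen. Cd5l, a secreted lipid-binding protein, was at 640 CPM in SMs and 5112 in KCs, Apoc1 at 261 and 5650, and the phosphatidylserine receptor Timd4 at 65.5 and 543. The 2 higher genes were Paqr9, at 618 CPM in SMs and 227 in KCs, and the potassium channel Kcna2, at 289 and 141, and with the Nr1h3fl/fl library neither passed the rule.

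Both tissues shared 23 of 1913 genes (1.2%) of at least 50 CPM in both, 4-fold or more above the other 3 tissues and less than 2-fold apart. They included the complement component C6, at 440 CPM in SMs and 484 in KCs and at most 4.64 in the other 3 tissues, and the oxysterol receptor Nr1h3 (LXRα), at 346 and 383 CPM and at most 40.7 elsewhere. The haemoglobin-haptoglobin receptor Cd163 was at 366 CPM in SMs and 321 in KCs, and the ectoenzyme Cd38 at 350 and 284. The lectin pathway ficolin Fcna was at 1494 and 1744 CPM, the proteoglycan Sdc3 at 1622 and 1214, and the non-coding RNA AW112010 at 1170 and 2298. The inhibitory lectin Clec12a, AB124611 and Pilrb1 completed the 10 most abundant, at 279 to 340 CPM in SMs and 288 to 424 in KCs.

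**Figure D4:**
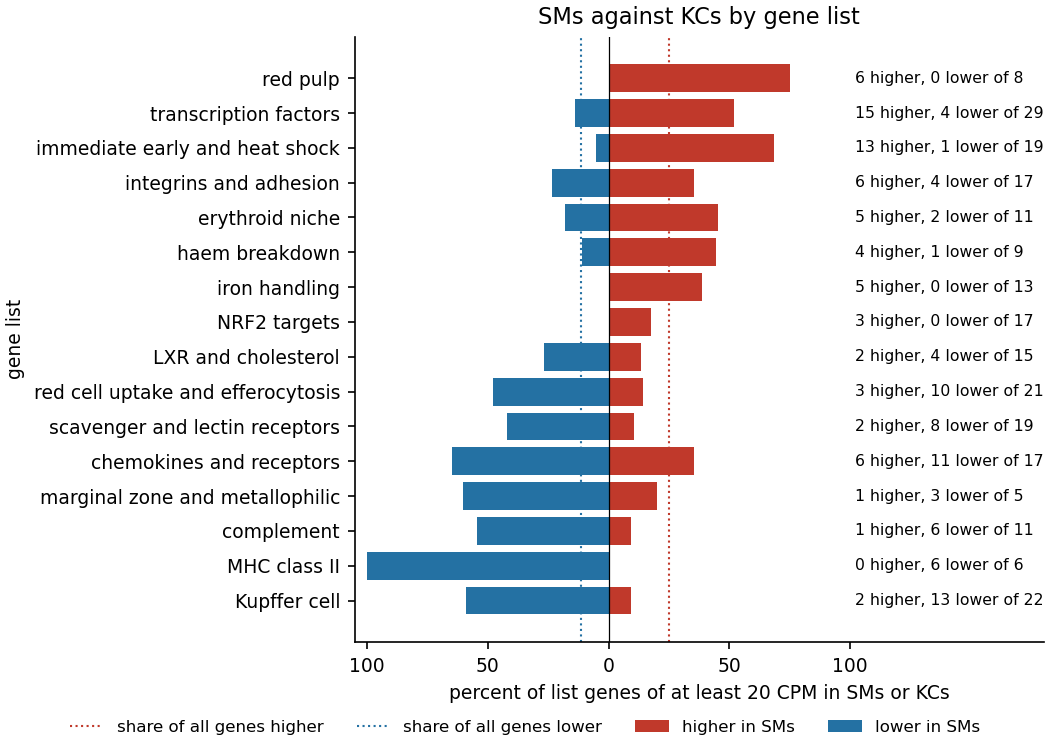
Percent of the genes in each of 16 lists of mac genes (markers of other cell types and the 4 SM markers as a list are not drawn), among those of at least 20 CPM in SMs or KCs, that were higher (red, to the right) or lower (blue, to the left) in SMs by a log2 ratio of at least 1. Dotted lines mark the shares over all genes (25.1% higher and 11.5% lower). MHC class II, with 0 higher and 6 lower, and red pulp, with 6 of 8 higher and 0 lower, lie furthest apart among the lists drawn. The red pulp list includes the 4 SM markers, which are 4 of its 6 higher genes.

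Haem breakdown was led by Hmox1 rather than by the whole list, of which 4 of 9 genes were higher and 1 lower than in KCs, against 25.1% and 11.5% of all genes. Hebp1, which binds haem, was at 1026 CPM in SMs and 144 in KCs, but also at 778 in AMs. Slc48a1, which moves haem out of lysosomes, was at 377 CPM in SMs, 174.6 in KCs and at most 110 in the other 3. Blvrb, a biliverdin reductase, was lower in SMs, at 466 against 962 CPM. With TMM factors, with which 851 of all genes were higher and 1214 lower, 2 listed genes were higher and 1 lower. With the Nr1h3fl/fl library 3 were higher and 0 lower, against 15.3% and 9.02% of all genes. Without clusters 3, 5 and 6 of SMs (described below) 3 were also higher and 0 lower. In the last 2 alternatives the call of Blvrb was lost.

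Of 13 iron genes, 5 were higher and 0 lower than in KCs, against 25.1% and 11.5% of all genes. But with TMM factors, with which 851 of all genes were higher and 1214 lower, 0 were higher and 2 lower. With the Nr1h3fl/fl library 0 were either, against 15.3% and 9.02% of all genes. The ferritin chains were abundant without exceeding KCs, with Fth1 at 7474 CPM in SMs and 7578 in KCs and Ftl1 at 10153 and 18052. Trf, transferrin, was at 1239 and 954 CPM. Of 17 NRF2 targets, genes of the antioxidant response, 3 were higher and 0 lower than in KCs, against 25.1% and 11.5% of all genes. The count was 2 higher and 2 lower with TMM factors, 3 and 2 with DESeq2 size factors, 6 and 0 without clusters 3, 5 and 6, and 6 and 0 with the Nr1h3fl/fl library, where 15.3% of all genes were higher. Catalase (Cat) was at 231 CPM in SMs and 76.9 in KCs.

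Of 21 genes for the uptake of red and dead cells, 3 were higher and 10 lower than in KCs, against 25.1% and 11.5% of all genes. With the Nr1h3fl/fl library 1 of 20 was higher and 9 lower, against 15.3% and 9.02% of all genes. The 3 higher genes were Mertk, Axl and Sirpa. The receptor tyrosine kinases Mertk and Axl were at 607 and 1263 CPM in SMs and 177 and 530 in KCs, and Sirpa, which reads CD47 on red cells, was at 1039 and 320. The phosphatidylserine receptor Timd4 was lower, as given above, and so were Fc receptors, with Fcgr1 at 73.5 CPM in SMs and 323 in KCs, although CD64, its product, was part of both gates. Fcgr3 was at 211 CPM in SMs and 550 in KCs. Among scavenger and lectin receptors, 2 of 19 were higher and 8 lower, against 25.1% and 11.5% of all genes. The 2 higher genes were the mannose receptor Mrc1 (1577 and 473 CPM) and Clec4n (674 and 252), while Msr1 was lower, at 31.6 and 304 CPM. With the Nr1h3fl/fl library 2 of 20 were higher and 11 lower, against 15.3% and 9.02% of all genes.

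MHC class II and complement genes were mostly lower than in KCs, but not than in every tissue. All 6 MHC class II genes considered were lower than in KCs by the rule, which 11.5% of all genes were, with Cd74 at 2305 CPM in SMs, 7753 in KCs, 23199 in CMs, 98.6 in AMs and 193 in microglia. H2-Ab1 was at 603 CPM in SMs, 3671 in KCs, 9364 in CMs, 36.8 in AMs and 46.9 in microglia. Of the class II genes, 4 of 6 were higher in SMs than in AMs, against 18.1% of all genes, and 4 of 7 than in microglia, against 25.7%. Against the Nr1h3fl/fl KCs, in which H2-Ab1 was at 1287 CPM, 2 of 6 were lower by the rule, which 9.02% of all genes were. B cells, present among the spleen barcodes, also carry these genes, and in the cluster of SMs with B cell genes described below the list summed to 9053 CPM against 2592 to 4500 CPM in the other clusters of over 100 cells. Complement genes without C1q, which chose the SMs, counted 1 higher and 6 lower of 11, against 25.1% and 11.5% of all genes, with C4b at 3.76 CPM in SMs and 228 in KCs, while against AMs 3 of 6 complement genes were higher and 1 lower (18.1% and 16.4% of all genes) and against microglia 4 and 4 of 8 (25.7% and 21.2%).

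Of 29 transcription factors, 15 were higher and 4 lower than in KCs, against 25.1% and 11.5% of all genes. With TMM factors, with which 851 of all genes were higher and 1214 lower, 11 of 27 listed genes were higher and 4 lower. With the Nr1h3fl/fl library 10 of 29 were higher and 4 lower, against 15.3% and 9.02% of all genes. On the log2 scale these genes had a median of 1.13 over the Zeb2fl/fl KCs and 0.46 over the Nr1h3fl/fl KCs. Beside Id2 and Spic, Maf, which helps hold macs in a mature state, was at 1086 CPM in SMs, 497 in KCs and 919 in the Nr1h3fl/fl KCs. Zeb2, the factor the study deletes, was at 699 CPM in SMs and 312 to 475 elsewhere, and 510 in the Nr1h3fl/fl KCs. Tcf7l2 was at 707 CPM in SMs, 231 in KCs and 634 in AMs. Pparg, a regulator of lipid handling known from AMs, was at 100.2 CPM in SMs and 98.2 in AMs, and 0 to 8.18 in the other 3 tissues. Bhlhe40 was at 198 CPM in SMs, 15.04 in KCs and 317 in AMs.

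Of 17 genes of chemokines and their receptors, 11 were lower in SMs than in KCs and 6 higher, against 11.5% and 25.1% of all genes, with Ccl24 at 128 and 972 CPM, Ccl6 at 81.9 and 795, Cxcl16 at 6.74 and 263, and Ccl7 at 0 UMIs and 26.1 CPM. Of the receptors, Cxcr4 was higher beside Ccr3, at 143 and 7.52 CPM. Among integrin and adhesion genes 6 of 17 were higher and 4 lower, against 25.1% and 11.5% of all genes, with Cd44 at 1160 and 371 CPM and Itgal (CD11a) at 19.1 and 336.

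Of 15 LXR and cholesterol genes, 2 were higher and 4 lower than in KCs, against 25.1% and 11.5% of all genes. Apoe was at 2014 CPM in SMs, 26303 in KCs and 34535 in CMs, and Pltp at 33.6, 686 and 482, whereas the sterol exporter Abcg1 was at 277 CPM in SMs, 116 in KCs and 1484 in AMs. The median of the list was 0.22 with library totals and -0.13 with TMM factors, and -0.15 with the Nr1h3fl/fl library.

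Immediate early genes, which tissue digestion can raise, were, with heat shock genes, 13 of 19 higher and 1 lower in SMs than in KCs, against 25.1% and 11.5% of all genes. Against CMs 3 were higher and 9 lower (31.7% and 13.2% of all genes), against AMs 8 and 1 (18.1% and 16.4%), and against microglia 1 and 15 (25.7% and 21.2%). Fos was at 2242 CPM in SMs, 187 in KCs, 1525 in CMs, 1514 in AMs and 4542 in microglia, Dusp1 at 1856 and 135 in SMs and KCs, and Nr4a1 at 690 and 19.3. The liver was digested with another enzyme than the spleen, and the part of this in the difference was not tested.

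Markers listed for other spleen macs differed among themselves. The 7 marginal zone and metallophilic genes summed to 1059 CPM in SMs, of which Clec4n, also abundant in CMs and AMs, made up 674 CPM and Ccl24 128 CPM. Cd209b was at 2.99 CPM and Siglec1 at 9.73 CPM in SMs, seen in 0.35% and 2.56% of cells, and Marco was at 209 CPM, seen in 18.7%, and at 331 in KCs. The 8 T zone and tingible body genes summed to 4038 CPM in SMs, led by Apoe at 2014, Axl at 1263 and Mertk at 607 CPM, while Timd4 was at 65.5, Cx3cr1 at 60.5, Gas6 at 23.6, Mfge8 at 4.42 and Trem2 at 0.11 CPM, and 3 of 7 were higher and 3 lower than in KCs, against 25.1% and 11.5% of all genes. Of the pan-macrophage markers, Csf1r was at 1668 CPM and Adgre1 at 697.

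Red cell and B cell RNA was present. Erythroid genes, among them the globins, summed to 11355 CPM in SMs and 11.6 to 622 CPM in the 4 other tissues, with none of the 14 at 0 in SMs. B cell genes summed to 523 CPM against 34.8 to 156, neutrophil genes to 364 against 27.2 to 196, with 3 of 10 at 0, and T and NK cell genes to 33.1 against 12.6 to 30.9. Clusters led by such genes were therefore left out as an alternative, which removed only part of this RNA, as follows.

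SMs fell into 7 clusters, of 1094 to 12 cells, made without the markers and C1q. Clusters 0, 1 and 2 held 2836 cells. Cluster 0 (1094 cells) was led by Il1b, Hilpda and Dusp2, and the immediate early list summed to 20816 CPM in it. Cluster 1 (954 cells, median 1388 UMIs) was led by Hebp1 and Gatm, with Hmox1 at 17459 CPM. Cluster 2 (788 cells) was led by Marco and Serpina3g, with Marco at 384 CPM. Vcam1 was at 7392, 7492 and 6592 CPM in these 3, and Cd209b at 8 CPM or less in every cluster. Cd209b was highest in cluster 2, at 7.64 CPM (4.73 to 11.7), on 21 UMIs in 0.76% of its cells. In clusters 0 and 1 it was at 1.34 and 0.71 CPM.

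The other 4 clusters were smaller. Cluster 3 (330 cells, 9.59%) was led by the B cell genes Ebf1, Ralgps2 and Mef2c, and 90.6% of its cells held at least 2 B cell marker UMIs, with Vcam1 still at 3375 CPM. S100a8 was at 1164 CPM there, in 1.2% of its cells, and at most 12.8 CPM in the others. Cluster 5 (124 cells, 3.6%) was led by Hemgn, Slc4a1 and Rhd of red cell precursors and held Hbb-bs at 71727 CPM beside Vcam1 at 4449 and Slc40a1 at 2904 CPM, and cell cycle genes at 2262 CPM. Cluster 6 (12 cells) was led by T cell genes, and cluster 4 (139 cells) by Gm42418.

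**Figure D5:**
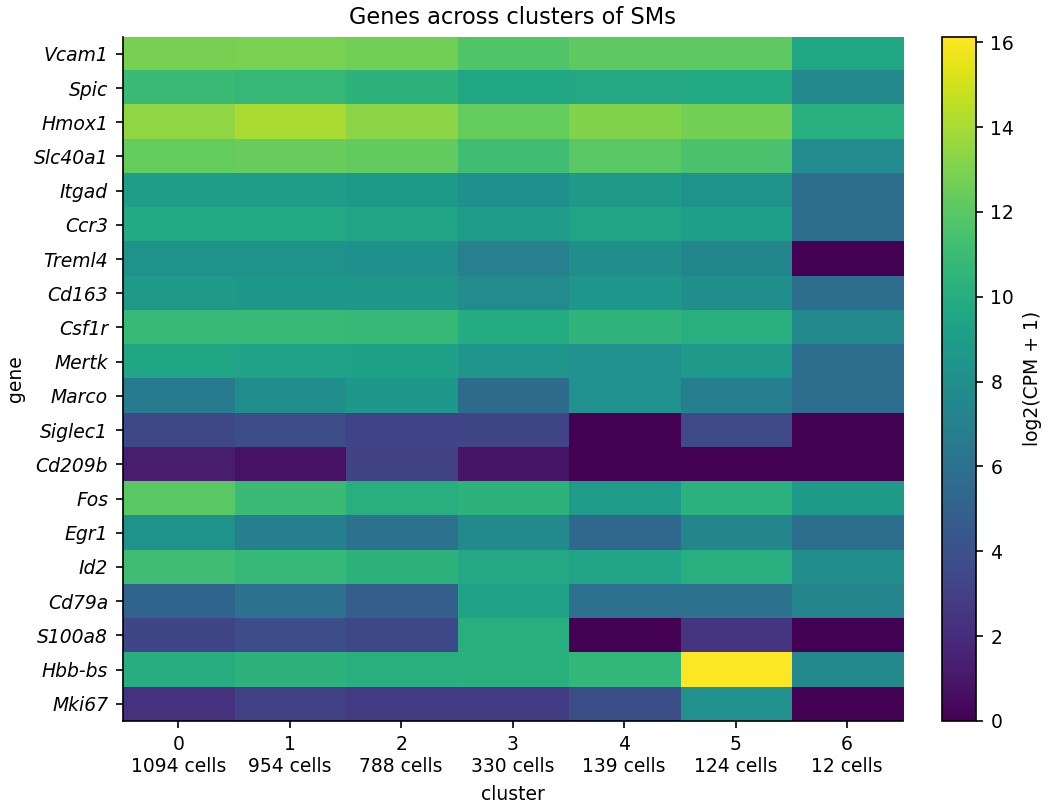
Levels of 20 genes (rows) in the 7 clusters of SMs (columns, with the number of cells), as log2 of CPM plus 1. Vcam1 and Slc40a1 are high in clusters 0 to 5, Cd79a and S100a8 stand out in cluster 3 and Hbb-bs in cluster 5.

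Without clusters 3, 5 and 6, which left 2975 SMs, erythroid genes still summed to 2763 CPM and B cell genes to 163 CPM. In these cells 53 genes were SM-high, 48 of them among the original 49, and 50 were SM-low, 44 of the original 47. S100a8 and S100a9 were at 10.1 and 5.84 CPM, so their place among the genes furthest above KCs rested on these clusters. Vcam1 was at 7024 CPM, and Spic and Hmox1 at 1687 and 12000 CPM.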

How the data were processed

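The authors sequenced 10x Genomics libraries, processed the reads with Cell Ranger, mapped them to mm10 and deposited tables of unnormalised UMI counts, each covering 27998 genes. The 5 Zeb2KO libraries were not used here. The members, gene lists and rules were chosen with earlier results of these data known. A cell was dropped if its log UMIs or log genes lay over 3 median absolute deviations (MADs) from its library's median, or its mitochondrial percentage as far above. Doublets were not removed. CPM was computed from summed counts. Clusters came from scanpy 1.11.5 with leidenalg 0.10.2, at resolution 0.5 on 2000 variable genes, 30 components and 15 neighbours. Named genes were the 4 markers, the 15 SM-high genes with the highest ratio and the 8 with the highest CPM, the 10 lowest SM-low genes, the 10 highest and 10 lowest SM to KC ratios at 50 CPM, the 10 most abundant shared genes, and up to 8 genes by CPM and 8 by ratio of each list. Calls left out 217 genes: those of C1q, mitochondria, ribosomes, haemoglobin and immunoglobulins, and sex-linked ones. Flvcr1, Clec7a, Ighd and Trbc2 were not analysed here. Scaling alternatives used edgeR 4.0.16 TMM factors and DESeq2 1.42.0 size factors. Rules were run on simulated counts drawn from the KC profile, with changes larger than the rules ask for. This checks the code and not how the rules behave on the real libraries.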

Additional observations from a re-analysis of the deposited data

How the results depend on the processing

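No paired analysis was possible because each tissue had 1 library and no test was made. The count of 49 SM-high genes became 32 with edgeR's TMM factors (all among the 49), 104 without the KC library, 79 without the AM library and 179 against microglia and CMs alone, sequenced on the same instrument. The 47 SM-low genes became 93 with TMM, 80 with DESeq2 size factors, 25 with the floor doubled, 155 with no floor, 30 with the Nr1h3fl/fl liver library, 140 without AMs, 94 without microglia and 231 against microglia and CMs alone. The 1566 genes higher than in KCs became 851 with TMM, 932 with DESeq2, 2519 with no floor and 943 with the Nr1h3fl/fl library, and the 717 lower became 1214, 1126 and 1389 with the first 3. The 23 shared genes became 44 with no floor. In these counts the Nr1h3fl/fl library took the place of the Zeb2fl/fl KCs. Fewer libraries relax a rule that asks for all of them.

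With TMM the share of calls that were higher in SMs was 41.2% against KCs (68.6% with totals), 43.3% against CMs (70.6%) and 40.5% against AMs (52.4%). With totals without mitochondrial, ribosomal, haemoglobin and immunoglobulin genes, this share was 75.7%, 74.7% and 56.9% in the same order. Against microglia it was 66.8% with those totals and 54.8% with library totals. The marker shares moved to 97.3% and 99.96% for Vcam1, 74.5% and 95.4% for Spic, 97.7% and 99.96% for Hmox1, and 94.6% and 99.8% for Slc40a1, with cells thinned to 1000 UMIs and with a C1q sum of 10 or more. That sum is met by 2282 barcodes, of which 2242 passed the cell filter, and resolution 0.3 gives 4 clusters.

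Barcodes with markers of other cell types could be left out only at the cost of all but 5 microglia, which carry Sparc of the stroma list, and there the log2 ratio of Tax1bp3 turned to 3.47; CMs also went from 4580 to 724 cells. Repeated without Sparc, with 1524 microglia and 870 CMs, it gave 50 SM-high and 52 SM-low genes, 47 and 43 of them as before. That repeat, the removal of clusters 3, 5 and 6 and totals without mitochondrial, ribosomal, haemoglobin and immunoglobulin genes were chosen after seeing the data. The cause of the other changes was not tested. Of the values of named genes under all alternatives, 558 moved by no more than a counting tolerance and 223 by more. The tolerance was taken from the SM and KC counts, also where the ratio was to another library. The C1q rule could not be applied to AMs. The SM library was the shallowest, and the floor of 3 UMIs used for genes at 0 is 0.332 CPM in it.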

Other observations

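The gene lists of the other tissues were at lower summed levels in SMs than in their own tissue. The 22 KC genes summed to 6108 CPM in SMs, 31005 in KCs and 125 to 1762 CPM in the other 3 tissues. The 14 listed microglia genes summed to 605 CPM in SMs, 538 in KCs and 40684 in microglia, with P2ry13 at 163 CPM and P2ry12 at 77.4 CPM in SMs and 3 genes at 0. The 18 AM genes summed to 900 CPM in SMs and 17638 in AMs, with Lpl at 319, Marco at 209 and Ear2 at 168 CPM in SMs. The 12 CM genes summed to 129 CPM in SMs and 8708 in CMs. The 14 cell cycle genes summed to 269 CPM in SMs and 280 in KCs, and in SMs cluster 5 stood highest, at 2262 CPM.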
